A study of Mus musculus with 9 samples.

Results

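Respiratory complex I subunits were taken from the deposited gene tables by symbol, as every Nduf gene of the a, b, c, s, v and ab series with a number, with the Ndufaf assembly factors left out. The rule found 38 of 23997 gene symbols, each listed at 1 locus. Of these, 36 encode structural subunits of complex I, 7 of them core and 29 supernumerary. The other 2 were Ndufa4, whose protein is now assigned to complex IV, and its paralog Ndufa4l2. All 38 passed the filter on low values (a mean scaled FPKM of at least 0.5), as did 13043 symbols in all.

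The study asked how the transcriptome of retinal ganglion cells (RGCs), the output neurons of the retina, responds to different degrees of elevated intraocular pressure (IOP). C57BL/6J mice, 8 weeks old when the retinas were collected, received saline (Control) or microbeads, which block fluid outflow, in the anterior chamber, and pressure was followed for 2 weeks. Microbead eyes were divided by their pressure increase into Mild IOP and Moderate IOP, and RGCs were purified from the dissociated retinas with antibodies on coated plates, the last plate holding an antibody to Thy1.2. The RNA of each group was pooled, from fewer retinas for Moderate IOP than for the other groups, and split into 3 technical replicates, so that 9 libraries came from 3 pools. Buffers of the cell isolation held actinomycin D, a blocker of transcription, in every group. Standard errors and p-values below therefore cover technical spread and say nothing of the spread between animals. In such bulk samples fewer cells of a type and less RNA per cell cannot be told apart.

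Complex I (NADH:ubiquinone oxidoreductase) is the entry point of the mitochondrial respiratory chain. It oxidizes NADH in the N module, passes the electrons along iron-sulfur clusters to ubiquinone in the Q module, and couples this to proton pumping in a membrane arm. The core subunits carry out catalysis and have bacterial counterparts, whereas the supernumerary subunits surround them and serve assembly and stability. The core subunits of the membrane arm are encoded by mitochondrial DNA and were not analysed here. RGCs have long unmyelinated axon segments in the retina and are known for a high demand on mitochondrial ATP and for their loss in inherited complex I deficiency.

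Expression was given as FPKM, fragment counts divided by transcript length and by the mapped fragments of the library, here scaled between libraries by median-of-ratios factors of 0.983 to 1.06. The depth derived from the confidence intervals in the files was 4860000 to 8620000 fragments in Control, 5130000 to 6580000 in Mild and 4790000 to 8370000 in Moderate IOP. A subunit value rested on 39.6 to 3873 derived fragments, with a median of 878.

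The cells were checked against markers of the retina. RGC markers summed to 1418, 1502 and 1468 scaled FPKM in Control, 1275, 1037 and 1284 in Mild and 2391, 2246 and 2243 in Moderate IOP, with Sncg the most abundant of the 8 genes and none at 0. Amacrine markers, led by Calb2, summed to 2178 to 2354 over the 9 libraries. This was above the RGC sum in every Control and Mild library and in Moderate 2 (2312). Rod markers, led by Sag, stood at 464 to 543 in Control, 298 to 336 in Mild and 301 to 343 in Moderate IOP. Müller glia markers, led by Clu, stood at 345 to 417 in Control, 352 to 405 in Mild and 549 to 589 in Moderate IOP. Lens crystallins and Bfsp1, led by Cryaa, summed to 304 to 368 in Control and to 0.443 to 5.71 in the IOP libraries. Microglia, endothelial and astrocyte markers summed to at most 33.9 in any library, and bipolar markers to at most 99.1. The endothelial genes Cldn5 and Cdh5 were listed at 0 in all libraries.

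Complex I genes were among the abundant transcripts of these cells. In Control, the mean level per length ranged from 61.2 scaled FPKM for Ndufs1 to 955 for Ndufb8, a ratio of 15.6, around a median of 394 over the 36 structural subunits. The median of all genes tested was 8.46. The median subunit stood at the 98.4th percentile of the genes tested, and the lowest one at the 87.1th. The genes lay on 15 chromosomes, with 2 on the X chromosome. Their transcripts were short. The median reference length was 800.5 nt, against 2799 nt for the genes tested, and 23 of 36 were under 1000 nt, against 8.47% of the genes tested.

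The summed level of the subunits was lowest in Mild and highest in Moderate IOP. Summed over the 36 structural subunits, Control libraries held 14032, 15408 and 15018 scaled FPKM. Mild libraries held 9720, 7866 and 11922, and Moderate libraries 17784, 17944 and 17311. The groups did not overlap on this sum, and the Mild libraries were spread most widely (9836 ± 2030, SD, n = 3, against 14819 ± 709 in Control and 17679 ± 329 in Moderate IOP). Mean expression was lower in Mild IOP than in Control for 35 of 36 subunits, all but Ndufs1, and higher in Moderate IOP than in Control for 29. Both held for 28. Library Mild 2 was the lowest of all 9 for 30 subunits, and Mild 3 was the highest of the Mild libraries for 33.

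**Figure D1:**
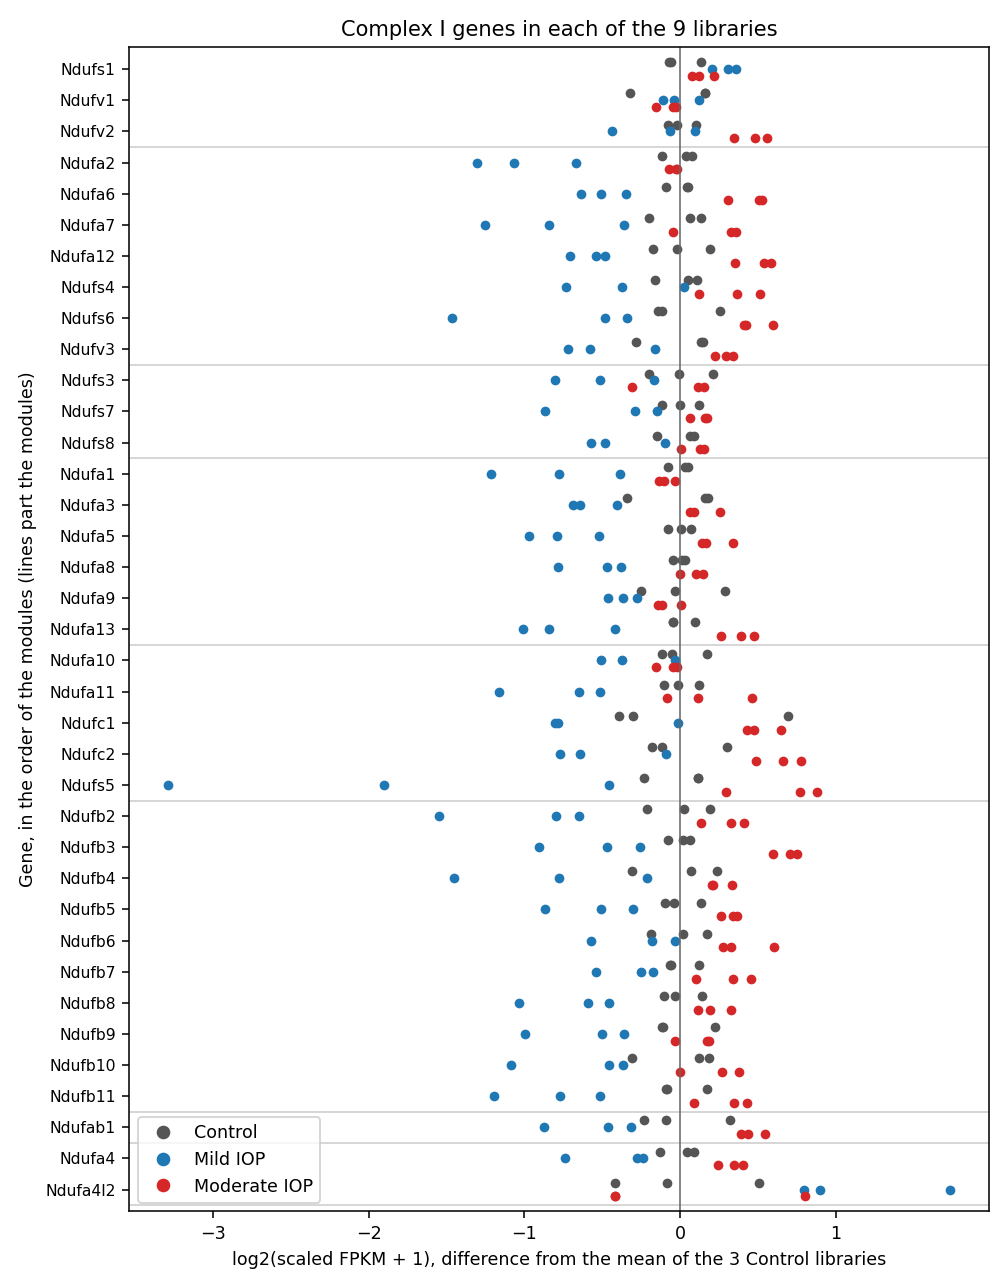
Each point is 1 library (3 per group) of 1 gene, plotted as log2(scaled FPKM + 1) minus the mean of the 3 Control libraries, with 37 of the 38 genes in the order of the modules of complex I. Mild IOP points lie left of Control for most genes, with Ndufs5 farthest, and Moderate IOP means lie right of Control for 30 of the 38 genes. All Moderate IOP points of Ndufa1 and Ndufa10 lie left of the Control mean. Ndufs1 is the only structural subunit whose Mild IOP mean lies right of Control.

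Between Moderate and Mild IOP, each core subunit differed by less than the median of the supernumerary subunits (0.95 on the log2 scale). Ndufv1, which binds NADH and the flavin, measured 208, 209 and 149 scaled FPKM in Control, 182, 173 and 203 in Mild and 168, 181 and 183 in Moderate IOP. Ndufs1, which holds iron-sulfur clusters of the N module, measured 58.1, 67.1 and 58.5 in Control, 70.5, 75.7 and 78.5 in Mild IOP and 64.5, 66.6 and 71.2 in Moderate IOP. The groups overlapped for Ndufv1, while the Mild libraries of Ndufs1 lay above its Control libraries. Neither passed the test in any comparison, except that Ndufv1 was called lower in Moderate than in Mild IOP after quantile normalization (−0.47, FDR = 0.073). Their Log2 fold-changes between Moderate and Mild IOP were −0.07 for Ndufv1 (95% interval −0.38 to 0.24) and −0.15 for Ndufs1 (−0.41 to 0.11).

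Ndufv2, Ndufs7, Ndufs8 and Ndufs3 had their lowest means in Mild IOP. Ndufv2, an iron-sulfur subunit of the N module, measured 191, 184 and 208 in Control, 185, 143 and 207 in Mild and 271, 286 and 247 in Moderate IOP. Its Moderate libraries lay above all others, while Mild IOP and Control overlapped. Ndufs7, which carries the last cluster before ubiquinone, measured 632, 535 and 580 in Control, 474, 317 and 525 in Mild and 655, 649 and 606 in Moderate IOP. Ndufs8, which carries the clusters next to it, averaged 311 ± 27.4, 240 ± 43.9 and 332 ± 17.7, and Ndufs3, a core subunit without a cluster, 190 ± 27.2, 135 ± 30.2 and 188 ± 31.7 in the same order of groups. Against Mild IOP, Ndufv2 was 0.60 higher on the log2 scale in Moderate IOP (SE 0.14, FDR = 0.034), Ndufs7 0.57 (SE 0.17, FDR = 0.076) and Ndufs8 0.48 (SE 0.14, FDR = 0.067). Ndufs3 did not pass (0.48, SE 0.18, FDR = 0.16). With the trend over transcript length removed, Ndufs7 was at −0.05 (FDR = 0.85) and Ndufs8 at −0.06 (FDR = 0.83). The calls of Ndufs7 and Ndufs8 were each lost in 5 of the 9 fits that left out 1 library.

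Mild IOP was compared with Control to ask what a small pressure increase changes. Of the 38 genes, 3 passed FDR < 0.1 and all were lower in Mild IOP (7.89%). The background was 0.391% of the 13043 genes tested. In the other direction, 0 of 38 passed, and 0.00767% of all genes did. At an unadjusted p under 0.05, limma put 2 of the 38 higher (Ndufs1 and Ndufa4l2), with 411 of all 13043 genes. At the same p it put 29 of the 38 lower, with 913 of all genes. The median Log2 fold-change of the structural subunits was −0.55, against 0.01 for all genes tested. It was −0.58 over the supernumerary and −0.14 over the core subunits. Every Mild library lay below every Control library for 24 genes (63.2%), where 9.13% of all genes showed this order.

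The 3 genes called were Ndufa2, Ndufa5 and Ndufa13, all supernumerary. Ndufa2, a small subunit of the N module with a thioredoxin-like fold, measured 487, 438 and 499 scaled FPKM in Control, 226, 191 and 298 in Mild and 450, 467 and 466 in Moderate IOP. Mild libraries lay well below the other groups, and Control and Moderate IOP overlapped. The fall in Mild IOP was 1.01 on the log2 scale by the fit (−1.01, SE 0.15, FDR = 0.027). Ndufa5, in the Q module (mm10 chr6:24518666-24527687), measured 415, 440 and 459 in Control, 253, 222 and 304 in Mild and 483, 554 and 492 in Moderate IOP (Mild IOP against Control −0.76, SE 0.13, FDR = 0.054). Its 3 groups did not overlap. Ndufa13, also known as Grim19 and placed at the junction of the arms (chr8:69894182-69902558), measured 173, 157 and 157 in Control, 90.0, 79.9 and 121 in Mild and 213, 226 and 194 in Moderate IOP (−0.76, SE 0.15, FDR = 0.095). Its groups did not overlap either.

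These calls depended on single libraries. The call of Ndufa2 held in 6 of 9 fits that left out 1 library, that of Ndufa5 in 3 and that of Ndufa13 in 1. Without Mild 3, the highest Mild library, 17 of the 38 genes were called lower, where 1.39% of all genes were. Without Mild 2 only Ndufa2 was called lower, where 0.115% of all genes were.

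**Figure D2:**
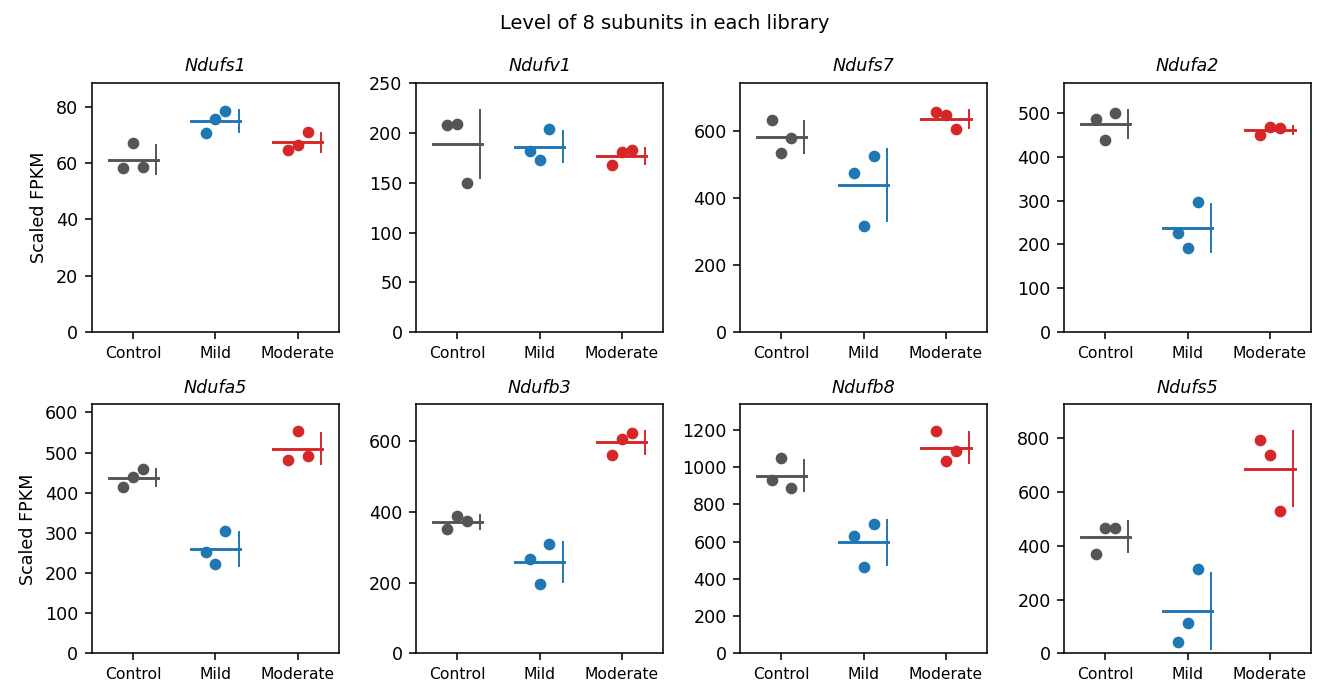
Scaled FPKM of 8 subunits on linear axes from 0, with 1 point per library, a horizontal line at the mean and a vertical line of ± 1 SD (n = 3 technical replicates per group). The groups overlap for Ndufv1 and Ndufs1 does not fall in Mild IOP, Ndufa2 is low only in Mild IOP, and Ndufa5, Ndufb3 and Ndufs5 separate into the order Mild IOP, Control, Moderate IOP.

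Moderate IOP against Control asks the same for a larger increase, with the same Control libraries. Here 1 of the 38 genes, Ndufb3, passed and was higher (2.63%), with a background of 0.951% of all genes called higher. None was called lower, 0 of 38 against a background of 0.889%, and limma gave 0 of them a lower value at an unadjusted p under 0.05. Of all 13043 genes, 947 were lower and 1047 higher at that p, and 11 of the 38 were higher. The median Log2 fold-change of the structural subunits was 0.23, against 0.00 for all genes tested, with 0.29 over the supernumerary and 0.10 over the core subunits. Every Moderate library lay above every Control library for 15 genes (39.5%), where 9.95% of all genes did.

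Ndufb3, a small membrane-spanning subunit of the distal arm (chr1:58586599-58595948), measured 351, 388 and 375 scaled FPKM in Control, 268, 198 and 310 in Mild and 561, 605 and 624 in Moderate IOP. The groups did not overlap, and the Moderate libraries stood far above the rest. The rise over Control was 1.60-fold (Log2 fold-change 0.68, SE 0.15, FDR = 0.069), and it was no longer called in 7 of the 9 fits that left out 1 library. Ndufc2, a membrane subunit of the proximal arm, and Ndufs5 were the next in size, at 0.64 (SE 0.19, FDR = 0.15) and 0.65 (SE 0.52, FDR = 0.59), and did not pass.

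The 2 IOP groups differed most from each other. Between Moderate and Mild IOP, 31 of 38 genes were called higher in Moderate IOP (81.6%), 30 of them structural subunits, where 7.03% of all genes were. None was called lower by limma, 0 of 38 against a background of 3.12%, with Ndufa4l2 alone lower at an unadjusted p under 0.05. Of all 13043 genes, 1155 were lower at that p. Every Moderate library lay above every Mild library for 32 genes (84.2%), against 14.5% of all genes. The median Log2 fold-change was 0.87 over the structural subunits, 0.95 over the supernumerary and 0.48 over the core, and −0.02 over all genes tested. Without Mild 2 the count was 27, where 3.28% of all genes were called higher. Over all fits that left out 1 library it was 24 (without Moderate 2, 4.29% of all genes) to 32 (without Mild 3, 7.37%).

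By module, the N module had 7 of 7 supernumerary subunits called (0.69 to 1.24 on the log2 scale) but 1 of 3 core subunits. Ndufs6, a zinc-binding subunit added late in assembly, was the farthest of these, at 454, 587 and 446 scaled FPKM in Control, 352, 178 and 389 in Mild and 660, 743 and 652 in Moderate IOP (Moderate against Mild IOP 1.24, SE 0.25, FDR = 0.018). Ndufs4, which holds the N module to the rest and whose loss in mice gives a Leigh-like disease, had the smallest difference of the 7 (0.69, SE 0.19, FDR = 0.055). Ndufa6, which docks an acyl carrier protein on the peripheral arm, was 0.95 higher (SE 0.11, FDR = 0.0040).

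In the Q module and the proximal end of the membrane arm, 2 of 4 core and 5 of 6 supernumerary subunits were called. Ndufa1, a short membrane subunit and one of the shortest transcripts (419 nt), measured 875, 942 and 953 in Control, 538, 397 and 707 in Mild and 839, 857 and 903 in Moderate IOP. Its Mild libraries lay apart, and Moderate IOP overlapped with Control (Moderate against Mild IOP 0.70, SE 0.17, FDR = 0.040). With the trend over transcript length removed its value was −0.19 (FDR = 0.31). The exception was Ndufa9, a subunit related to short-chain dehydrogenases (0.28, SE 0.14, FDR = 0.27). In the proximal membrane arm 4 of 5 were called, all but Ndufa10, a subunit with a nucleoside kinase fold, which averaged 243 ± 26.5 in Control, 198 ± 34.9 in Mild and 230 ± 11.4 in Moderate IOP (0.23, SE 0.14, FDR = 0.37). Ndufc1, with the shortest transcript (315 nt), varied widely within Control, at 507, 476 and 1013, and differed by 1.05 (SE 0.28, FDR = 0.053), a call kept in 5 of the 9 fits that left out 1 library. Ndufc2 differed by 1.14 (SE 0.19, FDR = 0.0090). Ndufa11 had the lowest scaled FPKM of the supernumerary subunits in Control, at 73.6 ± 5.75, and differed by 0.94 (SE 0.19, FDR = 0.019). It was not the lowest by fragments: its Control values rested on 1368, 1932 and 891 derived fragments, above the subunit median of 878. The length behind its FPKM was not known here and may differ from the 545 nt used.

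Ndufs5, a subunit on the intermembrane-space side of the proximal arm (chr4:123712710-123718186), showed the largest difference of all. It measured 369, 468 and 469 scaled FPKM in Control, 43.4, 115 and 315 in Mild and 795, 739 and 530 in Moderate IOP. The groups did not overlap, but the Mild libraries were far apart and rested on 39.6, 116 and 255 derived fragments. The Log2 fold-change between Moderate and Mild IOP was 2.53 (SE 0.52, 95% interval 1.39 to 3.66, FDR = 0.020). It was called in all 9 fits that left out 1 library, with values from 1.83 to 3.24.

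The distal membrane arm had all 10 of its listed subunits called, from 0.62 for Ndufb7 to 1.29 for Ndufb2. Ndufb2 measured 446, 589 and 525 in Control, 297, 176 and 329 in Mild and 686, 648 and 566 in Moderate IOP (1.29, SE 0.21, FDR = 0.0090). Ndufb8, whose protein is a common marker of assembled complex I and whose transcript was the most abundant of the 36 in Control, measured 930, 1049 and 887 in Control, 631, 464 and 694 in Mild and 1194, 1033 and 1090 in Moderate IOP (0.91, SE 0.15, FDR = 0.0092). Its Mild libraries lay below both other groups, which overlapped. Ndufb1-ps was not analysed here. Ndufab1, the mitochondrial acyl carrier protein found in both arms, measured 186, 168 and 248 in Control, 143, 107 and 158 in Mild and 268, 289 and 260 in Moderate IOP (1.01, SE 0.17, FDR = 0.010), with no overlap between groups.

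Outside the complex, Ndufa4 measured 1312, 1476 and 1524 scaled FPKM in Control, 1185, 859 and 1214 in Mild and 1827, 1899 and 1694 in Moderate IOP and followed the same order (Moderate against Mild IOP 0.75, SE 0.14, FDR = 0.014). Ndufa4l2, known as a hypoxia-induced gene, was near the limit of detection, at 0.896, 0 and 0.259 in Control, 1.49, 1.32 and 3.44 in Mild and 0, 0 and 1.33 in Moderate IOP. It rested on at most 13.1 derived fragments per library. In the main fit it did not pass at FDR < 0.1 (Moderate against Mild IOP −1.15, FDR = 0.14). With the length trend removed it was called lower.

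The differences went with transcript length. Over the 36 structural subunits, Pearson's r between log2 length and Log2 fold-change was 0.54 for Mild IOP against Control (Spearman's rho 0.57) and −0.51 for Moderate against Mild IOP (rho −0.49). For Moderate IOP against Control it was −0.22 (rho −0.20). These are descriptions across genes that share their libraries. The same trend ran through the rest of the transcriptome. Among other genes under 1000 nt with a mean of at least 100 scaled FPKM, 223 of 285 were called higher in Moderate than in Mild IOP, with a median of 0.78, and the 23 of the 38 genes in that class, Ndufa4 among them, were all called, with a median of 0.97. From 1000 to 2000 nt at the same level, it was 138 of 404 other genes and 5 of 9 subunits.

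**Figure D3:**
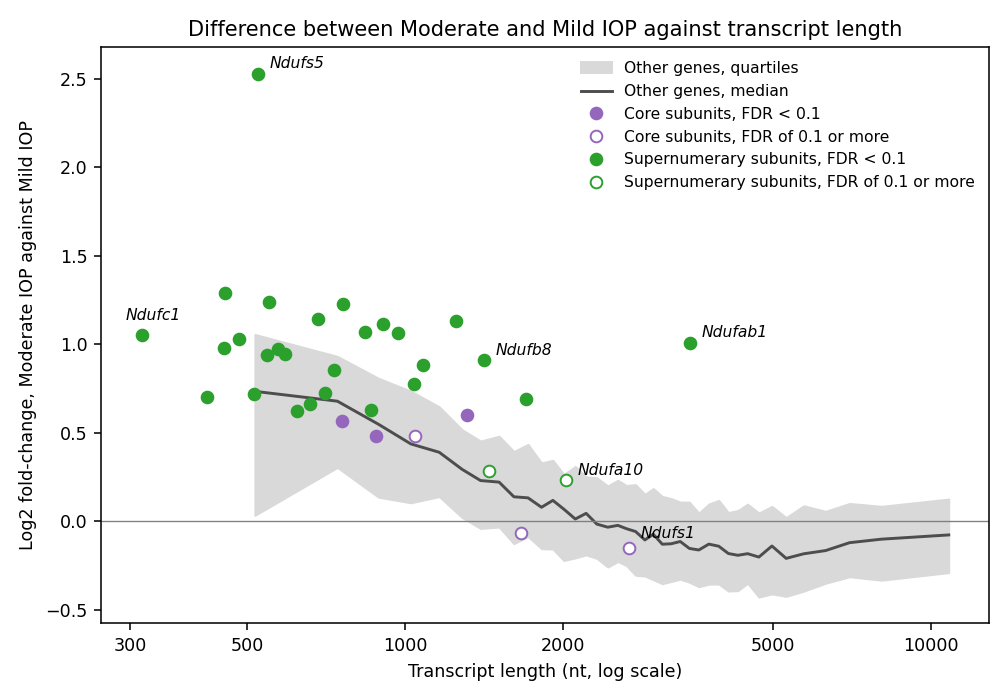
Log2 fold-change between Moderate and Mild IOP against reference transcript length (log axis). The line and band are the median and quartiles of all other genes in 40 bins of equal size, points are 35 structural subunits, filled where FDR < 0.1. The median of other genes falls from 0.73 in the shortest bin to 0.07 near 2004 nt and −0.13 near 3085 nt. Most supernumerary subunits lie above it, and Ndufs1 and Ndufv1 lie below it.

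Single libraries showed the same. Relative to the Control mean, the median of the supernumerary subunits was −0.57, −0.91 and −0.36 in the 3 Mild libraries and 0.34, 0.33 and 0.26 in the 3 Moderate libraries. The 1070 other genes under 1000 nt had medians of −0.34, −0.67 and −0.20 in Mild IOP and 0.26, 0.21 and 0.14 in Moderate IOP. The 8885 other genes of 2000 nt or more had 0.05, 0.10 and 0.03, and −0.04, −0.04 and −0.04. The core subunits, at −0.06, −0.44 and −0.01 and at 0.08, 0.15 and 0.06, lay between the short and the long genes. Mild 2 was the lowest and Mild 3 the highest Mild library both for the subunits and for the short genes.

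**Figure D4:**
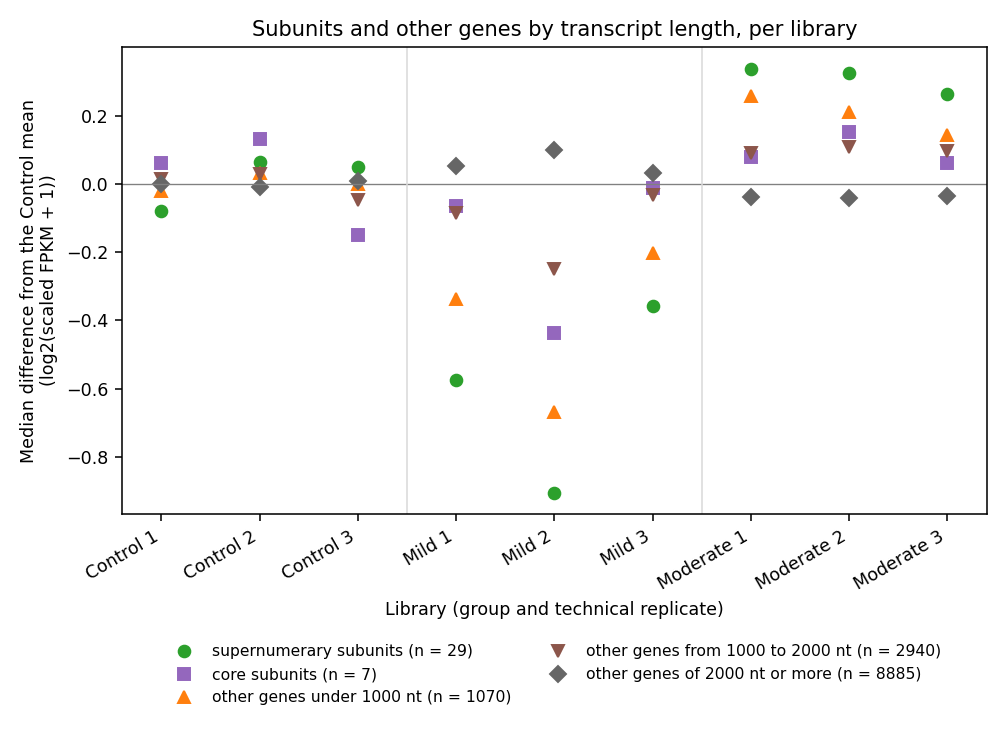
Median difference from the Control mean, in log2(scaled FPKM + 1), of 5 gene sets in each of the 9 libraries; each point is the median over the genes of a set. Supernumerary subunits and other genes under 1000 nt move together and in the same order of libraries, the subunits farther, while genes of 2000 nt or more move slightly the other way in Mild IOP and Moderate IOP.

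Removing the trend with length from each library changed the count. With the length of the RefSeq-linked reference transcript, 8 of 38 genes were called higher in Moderate than in Mild IOP (21.1%), where 2.02% of all genes were. These were Ndufa12, Ndufa13, Ndufab1, Ndufb2, Ndufb3, Ndufb5, Ndufb8 and Ndufb11, and the median of the structural subunits was 0.20, with 25 of the 29 supernumerary subunits above 0. Of the 7 core subunits limma called 0, with a median of −0.06 and 1 at an unadjusted p under 0.05. Ndufa4l2 was called lower (−1.66, FDR = 0.079), as were 1.29% of all genes. Against Control, no gene was called in Mild IOP (0 of 38 by limma, with 12 lower and 2 higher at an unadjusted p under 0.05). Over all 12933 genes, 0.131% were called lower and 0.0232% higher, and 535 were lower and 442 higher at that unadjusted p. In Moderate IOP Ndufb3 was still higher (0.46, FDR = 0.040), with 1.08% of all genes, and Ndufa1 was called lower (−0.40, FDR = 0.062), with 1.17%. The median over the 38 genes in Moderate IOP against Control was then 0.05, with 20 of them above 0.

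The outcome depended on which transcript gave the length. The reference transcript of Ndufab1 was 3479 nt long, although the shortest of its coding transcripts in the basic annotation had 1416 nt, and that of Ndufb8 was 1411 nt against 680 nt. With the shortest coding transcript of each gene, chosen after the first result was seen, 20 of 38 genes were called higher in Moderate than in Mild IOP (52.6%), against 4.37% of all genes, and 0 of the 7 core subunits. Ndufa4l2 was called lower (−1.42, FDR = 0.082), as were 2.84% of all genes. The median of the structural subunits was then 0.52. After quantile normalization, which sets equal distributions of abundance, 16 were called higher (42.1%), against 4.00% of all genes, and 2 were called lower (Ndufv1 among them), a share near the 4.84% of all genes. The 8 genes named for the reference length were called higher under all of these settings. The transcript lengths behind the deposited FPKM were not known here and may differ from those used, as for Ndufab1 and Ndufb8. For such a gene the length trend may be removed wrongly, so a call that stays is not free of it. Ndufab1 stood at 1.01 in the main fit and at 1.13 with the reference length trend removed. Ndufb3 stayed the one gene called higher in Moderate IOP than in Control, at 0.55 with the shortest transcript (FDR = 0.042). Whether length itself, abundance, RNA integrity or library preparation moved the short transcripts was not tested, and in 1 pool per group these cannot be told apart from the treatment.

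The assembly factors of complex I had a smaller median difference than its subunits. Of the 15 tested, 4 were called higher in Moderate than in Mild IOP (Ndufaf2, Ndufaf3, Ndufaf5 and Tmem261), where 7.03% of all genes were. Their list had a median Log2 fold-change of 0.24. Ndufaf2, which stands in for Ndufa12 on the assembling peripheral arm, measured 57.9, 53.3 and 62.4 scaled FPKM in Control, 61.2, 32.5 and 44.0 in Mild IOP and 131, 94.8 and 72.9 in Moderate IOP (1.11, SE 0.24, FDR = 0.025). Ndufaf3, which works on the Q module, differed by 0.89 (SE 0.25, FDR = 0.061). The median transcript of this list had 1573 nt, and after removal of the length trend 0 of 15 were called by limma, with a median of 0.11 and with 1 higher and 2 lower at an unadjusted p under 0.05. Of all genes, 2.02% were then called higher and 1.29% lower, so 0 of 15 is near the background.

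Genes of the other respiratory complexes were called as well. The background between Moderate and Mild IOP was 7.03% of all genes called higher and 3.12% called lower. In complex IV, 11 of 17 tested genes were called higher in Moderate than in Mild IOP (median 0.89), led by Cox7c (1.34, SE 0.21, FDR = 0.0077) and Cox6c (1.17, SE 0.20, FDR = 0.010). In ATP synthase it was 11 of 17 (median 0.69), with Atp5k at 1.14 (SE 0.21, FDR = 0.013) and Atp5j at 1.05 (SE 0.16, FDR = 0.0072), and both were also lower in Mild IOP than in Control, by −1.21 (FDR = 0.062) and −0.81 (FDR = 0.088). In complex III 5 of 9 were called, Uqcrb and Uqcrh the largest at 0.94 and 0.91, while the median against Control in Moderate IOP was −0.06. In complex II 3 of 4 were called higher, with Sdhb at 0.72 and Sdhc at 0.69, and Sdha, the flavoprotein, named after its value was seen, was called lower. With the length trend removed the counts called higher were 3, 3, 0 and 1 for complex IV, ATP synthase, complex III and complex II, where 2.02% of all genes were. Limma then put 2 complex III genes higher and 1 lower at an unadjusted p under 0.05.

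Genes of the citric acid cycle, which feeds NADH to complex I, did not pass. Limma called 0 of 13 in any comparison, with 1 at an unadjusted p under 0.05 between Moderate and Mild IOP, 3 between Mild IOP and Control, and 0 between Moderate IOP and Control. Of all genes tested, 21.8%, 10.2% and 15.3% had such a p, in the same order. Between the IOP groups 7.03% were called higher and 3.12% lower, with smaller shares against Control. The median of the 13 genes between the IOP groups was 0.06. After quantile normalization it was −0.23, with 13 of 13 genes below 0 and 2 called lower, where 4.84% of all genes were. Their median transcript had 2544 nt. Mdh2 and Suclg1 differed most, at 0.36 (FDR = 0.14) and 0.28 (FDR = 0.32). Cytosolic ribosomal proteins, which are no part of the mitochondrion and have similarly short transcripts (median 791 nt), had 69 of 81 called higher in Moderate than in Mild IOP, with a median of 0.94, and 13 after removal of the length trend. The shares called higher over all genes were 7.03% and 2.02%. Pseudogene copies can take up part of their reads. The largest differences in that list were those of Rps27 (3.67, SE 1.10, FDR = 0.079) and Rpl26 (2.38, SE 0.93, FDR = 0.17), which varied widely between replicates.

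No transcription regulator of respiratory genes passed the test. Of Nrf1, Gabpa, Gabpb1, Esrra, Ppargc1a, Ppargc1b, Yy1 and Tfam, limma called 0 of 8 in any comparison, with 1 at an unadjusted p under 0.05 between Moderate and Mild IOP. Of all genes tested, 7.03% were called higher and 3.12% lower between these groups, and 21.8% had such a p. The shares called against Control were smaller. In a list of 8 genes, 0 calls therefore do not set the regulators apart from other genes. Ppargc1a, a coactivator of mitochondrial biogenesis, measured 7.02, 5.75 and 4.92 scaled FPKM in Control, 7.97, 7.94 and 6.49 in Mild IOP and 6.12, 5.37 and 3.27 in Moderate IOP (Moderate against Mild IOP −0.54, SE 0.24, FDR = 0.22). Gabpa differed by −0.45 (SE 0.28, FDR = 0.38).

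The promoters of the subunits were searched for letters bound by NRF1, GABPA, ERR proteins, YY1 and SP1, a general activator. RefSeq (GRCm38.p6, the coordinates of mm10) gave a promoter of 300 bases, 250 before and 50 after the start, for 32 of the 36 subunits and for 9655 tested genes. Both strands were searched, and a match is a description and not a binding site. AANATGGC, the core of the YY1 motif, was in 11 of 32 subunit promoters (34.4%) and in 8.89% of all. It lay after the start in 7 of the 32 (21.9%) and in 4.50% of all promoters. The motif contains ATG, the letters of a start codon, and whether the matches after the start lie on the start codon of the protein was not tested. AAGGTCA, the element of the estrogen-related receptors (ERR), was in 3 (9.38%) against 2.99%, and GCGCATGC of NRF1 in 3 (9.38%) against 5.63%. CCGGAAG of GABPA was in 4 (12.5%) against 18.1%, and GGGCGG of SP1 in 15 (46.9%) against 65.5%. Windows of 30 bases are shown for 7 subunits that hold the YY1 or ERR letters and whose values were given by the naming rule, in lower case with the match in capitals, 5′ to 3′ on the strand of the gene (a reverse complement for Ndufs5).
Ndufb8 (YY1, chr19:44555393-44555422, minus strand): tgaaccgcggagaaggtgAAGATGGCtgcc
Ndufc1 (YY1, chr3:51408915-51408944, minus strand): gcctgcggaacAAGATGGCgccgtccgtag
Ndufs6 (YY1, chr13:73328433-73328462, minus strand): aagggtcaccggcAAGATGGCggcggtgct
Ndufs7 (YY1, chr10:80249462-80249491, plus strand): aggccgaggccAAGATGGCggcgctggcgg
Ndufs8 (YY1, chr19:3912921-3912950, minus strand): ctctctgatacAACATGGCagctccctaca
Ndufb2 (ERR, chr6:39592372-39592401, plus strand): gggagcagcagtAAGGTCAgccaagagcac
Ndufs5 (ERR, chr4:123718397-123718426, minus strand): ctttctcgagtgTGACCTTgctcaagtagc
In Ndufb8, Ndufc1, Ndufs6 and Ndufs7 the letters AAGATGGC began 39, 23, 34 and 25 bases into the transcript, counted from 1 at the start. In Ndufs8 the letters AACATGGC began at position −165, before the start. The 11 subunits with these letters differed by 0.28 (Ndufa9, not called) to 1.24 (Ndufs6) between Moderate and Mild IOP. The ERR letters began at position −181 in Ndufb2 and −228 in Ndufs5. The third subunit with them was Ndufb4 (position −55, Moderate against Mild IOP 1.06, FDR = 0.035).

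Markers of other cells moved with some groups as well. Between Moderate and Mild IOP, 5 of 8 RGC markers and 3 of 7 Müller glia markers were called higher, while 1 of 7 amacrine markers was called higher and 3 lower. Of all genes tested, 7.03% were called higher and 3.12% lower. Rod markers had a median Log2 fold-change of 0.01 between these groups, and lens genes were low in both. Their part in the differences of the subunits was not tested.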

How the data were processed

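Libraries were prepared with SMART-seq v4, which primes on poly(A) tails. Alignment to mm10 (bowtie2) and estimation of expression for each gene locus (cufflinks) were done by the authors. The deposited values are FPKM with a confidence interval in each of the 9 libraries, and the submitters' processing notes also name Trimmomatic, FastQC, TopHat2 and Cuffdiff. FPKM depend on the transcript length assumed, and strand was not used here. Library totals were not analysed here. Fragments were derived by squaring the ratio of 2 × FPKM to the distance between FPKM and its upper bound, which is too low for abundant genes (median ratio to the product of FPKM, length and depth 0.706 from 100 to 1000 FPKM, and 0.922 from 10 to 100).

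Loci sharing a symbol were added up, 2 symbols with a failed estimate were left out, and median-of-ratios factors put the libraries on one scale. Log2(scaled FPKM + 1) of genes with a mean of at least 0.5 entered a limma model (version 3.58.1, R 4.3.3) with 1 mean per group, all 9 libraries and a variance trend. Benjamini-Hochberg adjustment covered all 13043 genes of a comparison, and a gene was called at FDR < 0.1. Fold-changes on this scale understate changes of low genes. Both comparisons with Control used the same Control libraries. Transcript lengths came from GENCODE M21 (38 members, 12933 tested genes), and the length trend was removed per library by lowess (span 0.3). The lengths the authors used for FPKM were not known here and may differ. The fit was tested on simulated data. Other tools were Python 3.11.15, numpy 2.4.6, pandas 2.3.3, scipy 1.17.1 and matplotlib 3.10.9.

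Members, gene lists and alternatives were chosen with earlier results of these data known. By rule, values are given for the core subunits, the 3 highest and 3 lowest members in Control, the 3 largest differences in each comparison, the 3 longest and 3 shortest transcripts, Ndufa4, Ndufa4l2, Ndufab1, members called against Control, and 2 genes of each other list with the largest difference between Moderate and Mild IOP. The values of 1 member are not reported here beyond its part in counts and medians. Ndufa3, Ndufa6, Ndufa9, Ndufb4, Ndufb6, Ndufb7 and Ndufs4 were added after their values were seen. The replicates are technical, so p-values measure only their spread, and no batch is given in the sources used here.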

Additional observations from a re-analysis of the deposited data

How the results depend on the processing

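The direction of the median Log2 fold-change of the 38 genes was kept under every alternative tried, in all 3 comparisons. In Mild IOP against Control the median (−0.54) became −0.26 with quantile normalization, −0.21 with the length trend removed, −0.18 with length and GC trends removed and −0.35 with the trend over the shortest coding transcript removed, an alternative chosen after seeing the data. Between Moderate and Mild IOP it went from 0.81 to 0.37, 0.18, 0.17 and 0.51 under the same settings, and the count of genes called higher from 31 to 16, 8, 8 and 20. In Moderate IOP against Control it fell from 0.23 to 0.10, 0.05, 0.05 and 0.13. The 3 genes called lower in Mild IOP became 1 with quantile normalization, without a filter and with the shortest transcript, 0 with the length trend, with length and GC trends removed, with only the compared groups and without a variance trend, and 10 when genes under 10 FPKM were left out. The single call in Moderate IOP against Control became 0 without a filter or a variance trend and 3 above 10 FPKM or with the GC trend removed.

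Over all genes, 52 calls in Mild IOP against Control became 19 with quantile normalization, 24 without a filter, 101 above 10 FPKM, 11 with the compared groups only, 20 with length, 18 with length and GC, 26 with shortest transcripts and 15 without a variance trend. The 240 calls in Moderate IOP against Control became 134 with the compared groups only and 144 without a variance trend, and the 1324 between Moderate and Mild IOP became 428 with length, 505 with length and GC and 839 without a variance trend. Of the genes called higher in Moderate than in Mild IOP, 6 changed sign with the length trend removed: Ndufa3 (−0.09), Ndufb6 (−0.03), Ndufb7 (−0.10), and Ndufa1, Ndufs7 and Ndufs8 (−0.191, −0.0519 and −0.0589), the last 3 also with length and GC trends removed (−0.184, −0.0618 and −0.0478).

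Leaving out 1 library gave 0 to 17 genes called lower in Mild IOP against Control, 0 to 4 higher in Moderate IOP against Control and 24 to 32 higher between Moderate and Mild IOP. Their medians were −0.67 to −0.41, 0.21 to 0.28 and 0.69 to 0.94. Calls over all genes were 15 to 183, 61 to 287 and 519 to 1399. The 17 and the 183 were without Mild 3, the 4 and the 519 without Mild 2, the 61 without Control 1, the 24 without Moderate 2 and the 1399 without Control 3. Without Moderate 3, 1 of the 38 genes was called lower in Moderate than in Mild IOP, where 2.48% of all genes were. Calls over all genes in Mild IOP against Control were 52 and stayed within 1.5 times of that count only without Moderate 1 or Moderate 3.

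Replicate numbers did not pair the libraries: deviations from the group means correlated between libraries of the same number with a median r of 0.01 (−0.01 to 0.04). With a replicate block, 1 of the 38 genes was called lower in Mild IOP, 0 higher in Moderate IOP against Control and 30 higher between the IOP groups, and calls over all genes were 25, 135 and 1120. Depth limits Ndufa4l2, at most 13.1 derived fragments per library.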

Other observations

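Some values belong to no comparison above. The structural subunits varied more between the replicates of Mild IOP (median coefficient of variation 21.5%) than between those of Control (11.3%) or Moderate IOP (7.35%), although each set of 3 libraries came from 1 pool. The highest mean among the subunits was 955 scaled FPKM in Control, 609 in Mild and 1106 in Moderate IOP, and the ratio of the highest to the lowest subunit was 15.6, 14.1 and 16.4. Among the 36 subunits, GC content had little relation to the Log2 fold-change between Moderate and Mild IOP (Pearson's r 0.04, Spearman's rho −0.03), and the Control level had r of 0.36 and rho of 0.35, which became −0.01 and 0.00 with the length trend removed. In library Mild 2, the microRNA locus Mir1249 alone held 20.5% of the summed FPKM, and in Moderate 3 Mir8104 held 9.14%; elsewhere the most abundant gene was Ubb, at 1.87% to 3.59%.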
